A study of Rattus norvegicus with 12 samples.

Results

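Chemokines and other genes tied to the transcription factor NF-kappaB were followed in 2 tumorigenic rat hepatic cell lines treated with the mTOR inhibitor rapamycin. The group comprised 10 genes, namely Ccl2, Ccl7, Ccl20, Cx3cl1, Cxcl1, Cxcl10, Cxcl13, Il33, Cd83 and Nfkbia, of 13337 genes named on the array. They were found by gene symbol, current or former, in the platform annotation, and every probe of each was taken, giving 11 probes. The genes were chosen by their differences between the lines and their rapamycin responses on these same arrays. Their levels and fold changes are therefore given as a description, without p-values.

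GN5 cells had been derived from the rat liver epithelial line WB-F344 with an agent that the labels call NNN. H5D cells came from a hepatocellular carcinoma that an azo dye had induced in a Fischer rat. Each line received dimethyl sulfoxide (DMSO, the vehicle) or 50 nM rapamycin for 24 h, and RNA from triplicate plates was hybridised to RatRef-12 BeadChips, so that each of the 4 groups had 3 arrays. Both lines are listed as tumorigenic, with an intermediate response to rapamycin, and no untransformed line was among these arrays. The medium was DMEM/F12 for GN5 and Waymouth for H5D, so line and medium cannot be told apart.

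NF-kappaB is held in the cytoplasm by IkappaB proteins and enters the nucleus once an activated kinase complex has marked these inhibitors for destruction. Among its targets is Nfkbia, which encodes IkappaB-alpha, so that the pathway makes its own inhibitor. Other known targets are chemokines, the secreted proteins that guide leukocytes into tissue, and in liver tumors such proteins can come from the tumor cells themselves.

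DNA sequences to which NF-kappaB binds are known as kappaB sites, and only the sequence near each start site was searched for them. For the members whose levels carry the findings below, the stretch before the transcription start in RefSeq (assembly GRCr8) is shown. It runs 5′ to 3′ on the strand of the gene. Capitals mark letters that match the kappaB consensus on either strand, and neighbouring matches may overlap. The stretches are chr14:17479322-17479571 (minus strand) for Cxcl1, chr9:91836909-91837138 (plus strand) for Ccl20, chr14:15988816-15989065 (plus strand) for Cxcl10 and chr14:13917921-13918170 (minus strand) for Cxcl13. For Nfkbia, 235 of the 250 bases lie within the annotated span of the gene, so that 30 bases around the match are shown (chr6:78597084-78597113, minus strand). The last 20 bases before the Ccl20 start were left out for the same reason.
Cxcl1: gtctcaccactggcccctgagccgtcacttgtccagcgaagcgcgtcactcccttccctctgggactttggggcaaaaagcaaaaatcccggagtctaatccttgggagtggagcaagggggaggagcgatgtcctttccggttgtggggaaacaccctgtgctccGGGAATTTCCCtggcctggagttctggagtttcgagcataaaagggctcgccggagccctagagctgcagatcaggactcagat
Ccl20: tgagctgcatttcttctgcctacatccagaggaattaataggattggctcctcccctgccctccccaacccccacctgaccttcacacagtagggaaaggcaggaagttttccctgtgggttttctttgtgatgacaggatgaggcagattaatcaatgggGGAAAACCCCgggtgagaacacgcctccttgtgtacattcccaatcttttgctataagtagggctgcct
Cxcl10: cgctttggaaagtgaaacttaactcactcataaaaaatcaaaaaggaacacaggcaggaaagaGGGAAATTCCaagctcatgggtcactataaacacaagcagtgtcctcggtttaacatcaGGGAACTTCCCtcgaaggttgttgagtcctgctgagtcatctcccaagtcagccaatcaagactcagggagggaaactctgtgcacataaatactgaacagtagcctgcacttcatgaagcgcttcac
Cxcl13: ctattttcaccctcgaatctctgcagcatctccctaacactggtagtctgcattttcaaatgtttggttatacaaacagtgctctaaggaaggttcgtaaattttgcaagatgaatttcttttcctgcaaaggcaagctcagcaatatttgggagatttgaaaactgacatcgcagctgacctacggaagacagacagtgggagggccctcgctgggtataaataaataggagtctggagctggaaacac
Nfkbia: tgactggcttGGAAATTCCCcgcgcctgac

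The consensus was searched from 250 bases before to 50 bases after each start. It matched in the windows of 6 of the 9 members in the RefSeq table (Ccl7, Ccl20, Cxcl1, Cxcl10, Cd83 and Nfkbia), and Ccl2 was not in that table. These 9 genes had 10 windows. Of all 33469 windows of this length, 2515 (7.51%) matched. The member figure counts genes and this share counts windows. The members were listed as chemokines and genes tied to NF-kappaB, so nothing is read from their count. The first base of the match lay at position -31 in Nfkbia and -89 in Ccl20, counted from the start. Cxcl1 had overlapping matches at -84 and -83, and Cxcl10 had matches at -187, -128 and -127. The letters were not found in the windows of Cx3cl1, Cxcl13 and Il33, and sequence outside the windows was not searched. The annotated genes of Cxcl1 (chr14:17477542-17479321), Cxcl10 (chr14:15989066-15991263) and Cxcl13 (chr14:13912858-13917920) lie on chromosome 14. Ccl2 (chr10:67503077-67504875) and Ccl7 (chr10:67514095-67515945) lie near each other on chromosome 10.

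The scanner software gave each probe a detection p, which sets its brightness against that of control probes with no target in the sample, and detection was taken at a p of at most 0.01. Levels are background-corrected, quantile-normalised log2 signals. Between 7427 and 8483 of 22523 probes were detected per array. The median raw signal was 74.3 to 82.7 except on GN5 vehicle arrays 2 (105.9) and 3 (96.2), and H5D vehicle array 2 had the lowest minimum (14.9 against 42.3 to 49.9). Of 7 hepatocyte markers on the array, 6 were undetected in every group, albumin (Alb) included, and Tf alone was detected. The epithelial keratins Krt7 and Krt8 were detected in both lines. Of 6 leukocyte markers, 4 were undetected on all 12 arrays (the pan-leukocyte gene Ptprc, Itgam, Cd3e and Cd79b). Cd14 was detected on all 12 arrays, and Aif1 in H5D cells.

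The lines differed in which of the 10 genes were detected. On all 6 H5D arrays and on no GN5 array, 7 were detected (Ccl2, Ccl7, Ccl20, Cx3cl1, Cxcl10, Cd83 and, by its brighter probe, Il33). Cxcl1 and Nfkbia were detected on all 12 arrays. Cxcl13 alone was detected on the 6 GN5 arrays and on no H5D array. As the genes were chosen by their differences between the lines, nothing is read from these counts. The share of all probes with such patterns was not counted. In bulk RNA, fewer cells that express a gene and less RNA per cell cannot be told apart.

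Ccl2 and Ccl7 attract monocytes through the receptor Ccr2. In vehicle-treated H5D cells the log2 level of Ccl2 was 13.20, 13.19 and 12.98, and with rapamycin it was 13.22, 13.38 and 13.40. In GN5 cells it read 4.75, 4.75 and 4.78 with vehicle and 5.04, 5.01 and 4.88 with rapamycin. These GN5 values were below the detection limit, at detection p-values of 0.0485 to 0.16, and the raw signals of Ccl2 were 74.0 to 103.2 in GN5 vehicle cells against 6666 to 9136 in H5D vehicle cells. Ccl7 read 12.09, 12.12 and 11.89 in H5D vehicle cells and 12.45, 12.40 and 12.40 with rapamycin. In GN5 cells its 6 values lay between 4.59 and 4.95, all undetected. Where a probe was undetected in a group, a fold change can only be bounded, and was taken against the lowest detected signal. With vehicle and after background correction, Ccl2 was at least 191-fold and Ccl7 at least 89.6-fold lower in GN5 cells than in H5D cells. These and all later "at least" folds hold only for background-corrected signals. In the authors' value table, from which no background had been removed, the measured log2 difference was -6.72 for Ccl2 and -5.68 for Ccl7, smaller than the bounds (7.58 and 6.49 on the log2 scale).

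Ccl20, the ligand of Ccr6, attracts dendritic cell precursors and lymphocytes. It read 12.73, 12.53 and 12.93 in H5D vehicle cells and 12.65, 12.61 and 12.53 with rapamycin, and the groups overlapped. In GN5 cells it stayed undetected between 4.62 and 5.12, at least 145-fold lower with vehicle. Cx3cl1 encodes fractalkine, a chemokine made as a membrane protein that binds Cx3cr1. In H5D cells it read 11.28, 11.04 and 11.16 with vehicle and 11.46, 11.39 and 11.58 with rapamycin. It was undetected between 4.38 and 4.78 in GN5 cells, at least 48.9-fold lower with vehicle.

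**Figure D1:**
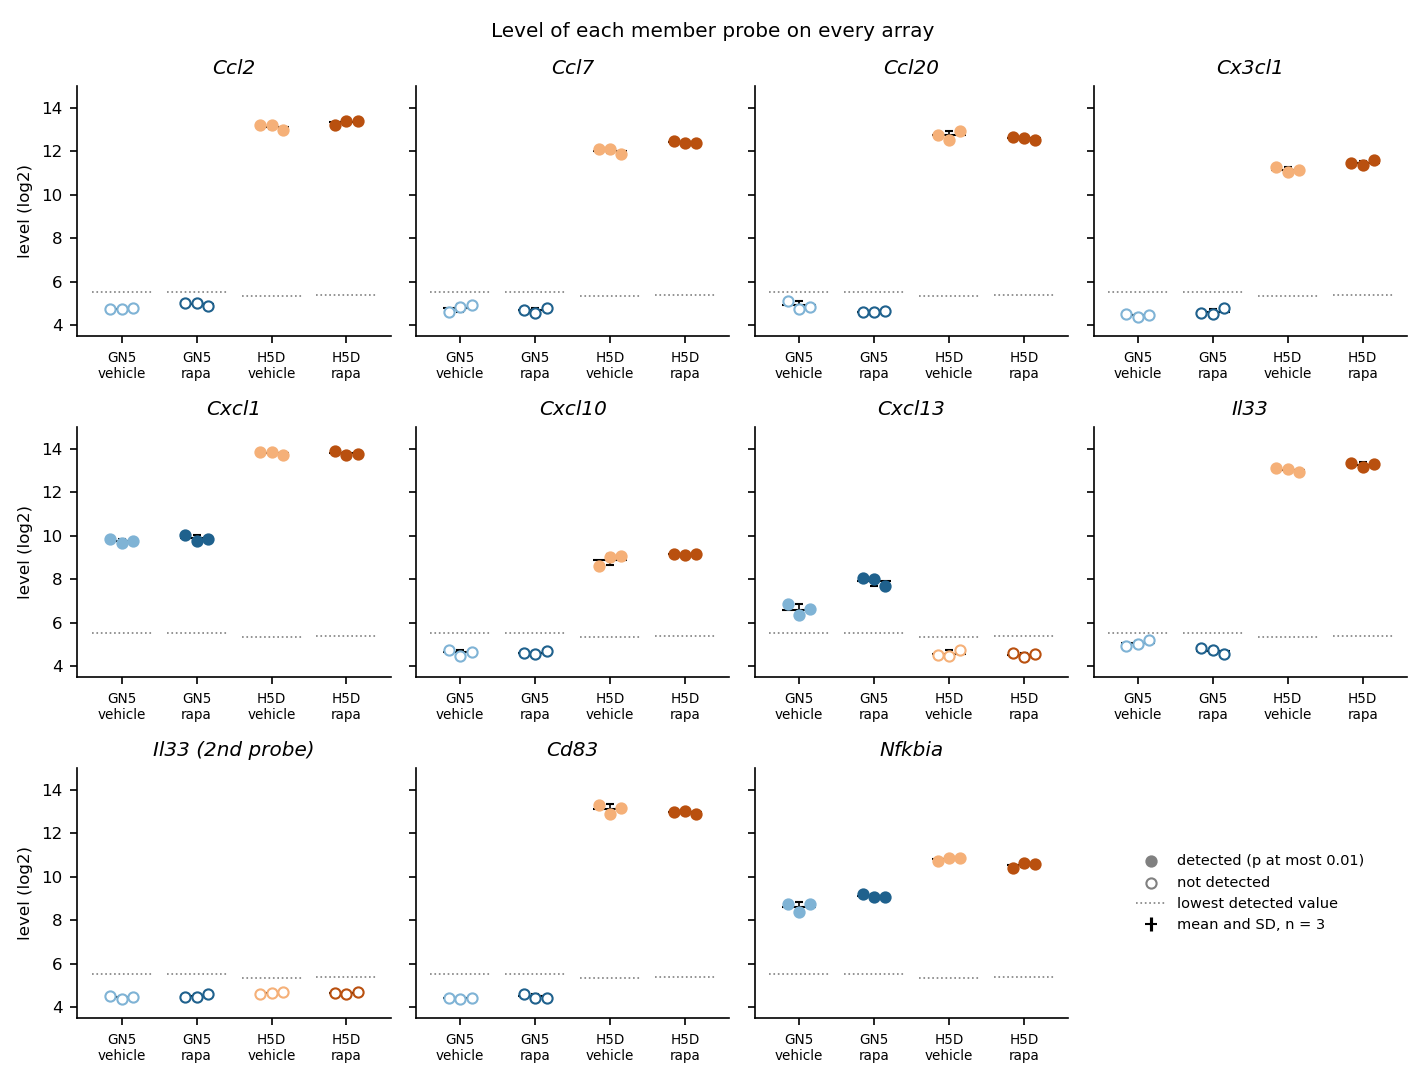
Level (log2, vertical axis) of each of the 11 probes on every array, by line and treatment, with the mean and SD of each group (n = 3). Filled points were detected and open points were not, the dotted lines mark the lowest detected value averaged over the arrays of a group, and Cxcl13 is the gene with filled points in GN5 cells alone.

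Cxcl1 recruits neutrophils through Cxcr2. It read 9.84, 9.65 and 9.77 in GN5 vehicle cells, 10.05, 9.76 and 9.86 in GN5 cells with rapamycin, 13.85, 13.85 and 13.72 in H5D vehicle cells and 13.88, 13.73 and 13.75 in H5D cells with rapamycin. All arrays of H5D lay above all arrays of GN5, and within each line the treatments overlapped. As the gene was detected throughout, its difference between the lines could be measured, and Cxcl1 was 16.6-fold lower in GN5 cells with vehicle (log2 difference -4.05, SE 0.108). Its raw signals in H5D cells (11572 to 14642) were near the brightest signals on those arrays (16321 to 19017), and saturation was not tested. Cxcl10, which attracts T cells through Cxcr3 and is also induced by interferon, read 8.63, 9.03 and 9.06 in H5D vehicle cells and 9.18, 9.13 and 9.15 with rapamycin. It was undetected between 4.50 and 4.75 in GN5 cells, at least 10.3-fold lower with vehicle.

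Cxcl13, which attracts B cells through Cxcr5, ran the other way. In GN5 vehicle cells it read 6.87, 6.35 and 6.63, and with rapamycin 8.05, 8.01 and 7.69. All 3 rapamycin arrays lay above all 3 vehicle arrays, in the raw signals too, which were 157.8, 173.4 and 173.1 with vehicle and 261.0, 299.1 and 243.8 with rapamycin. In H5D cells it was undetected at 4.51, 4.48 and 4.75 with vehicle and at 4.62, 4.43 and 4.55 with rapamycin. After background correction Cxcl13 was at least 2.41-fold higher in GN5 than in H5D cells with vehicle and at least 5.71-fold higher with rapamycin (bounds of 1.27 and 2.51 on the log2 scale). In the authors' value table the measured log2 differences were smaller, at 1.08 and 2.06.

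Il33 encodes a nuclear cytokine that is released from damaged cells and acts on Il1rl1. Its brighter probe read 13.13, 13.06 and 12.92 in H5D vehicle cells and 13.33, 13.14 and 13.32 with rapamycin. The same probe was undetected between 4.57 and 5.20 in GN5 cells, at least 180-fold lower with vehicle. A further Il33 probe was undetected on all 12 arrays (4.39 to 4.73) and so did not show this difference. The probes of this gene disagreed, and the values given here are those of the brighter probe. Cd83, a surface protein known as a marker of mature dendritic cells, read 13.29, 12.87 and 13.18 in H5D vehicle cells and 13.00, 13.01 and 12.90 with rapamycin. In GN5 cells it was undetected between 4.39 and 4.64, at least 189-fold lower with vehicle.

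Nfkbia was detected everywhere. It read 8.77, 8.38 and 8.76 in GN5 vehicle cells, 9.21, 9.09 and 9.06 in GN5 cells with rapamycin, 10.72, 10.86 and 10.88 in H5D vehicle cells, and 10.42, 10.62 and 10.58 in H5D cells with rapamycin. The order of the groups was H5D vehicle, H5D rapamycin, GN5 rapamycin and GN5 vehicle, with no overlap between neighbours. Nfkbia was 4.55-fold lower in GN5 than in H5D cells with vehicle (log2 difference -2.19, SE 0.129) and 2.68-fold lower with rapamycin (-1.42, SE 0.0976).

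With vehicle, all 10 genes passed the test between the lines (limma, adjusted p below 0.05 over all probes tested), 9 of them lower and Cxcl13 higher in GN5 cells. Of all 8279 probes tested, 63.3% passed (32.3% higher and 31% lower), and the arrays of the lines did not overlap for 67.1%. As the genes were chosen with this contrast known, nothing is read from their count. For the same reason nothing is read from the median log2 difference of the members, given as a description. It was -6.97, or -6.05 with undetected values at their bound, and the median over all probes was 0.04. With rapamycin the same 10 genes passed, 9 lower and Cxcl13 higher, where 72.2% of all probes passed (38.1% higher and 34.1% lower) and 74.1% did not overlap. The bounds were then at least 219-fold for Ccl2, 209-fold for Il33, 171-fold for Cd83, 132-fold for Ccl20, 116-fold for Ccl7, 60.6-fold for Cx3cl1 and 12.1-fold for Cxcl10, all lower in GN5 cells after background correction. For each of the 8 genes with a bound, the difference in the authors' value table was smaller than the bound, with vehicle and with rapamycin. Cxcl1 was 14.9-fold lower (-3.90, SE 0.104). The marker values that follow are those with vehicle. Of the 6 leukocyte markers on the array, 2 differed between the lines, and 4 were undetected throughout. The summed raw signal of all 6 was 632 to 835 in GN5 vehicle cells and 1733 to 2604 in H5D vehicle cells. Cd14 (8.90-fold, adjusted p = 6.45e-09) and Aif1 (at least 1.52-fold, adjusted p = 6.74e-07) were lower in GN5 cells, whereas Ptprc was undetected in both lines. Of 4 epithelial markers on the array 3 were tested, and they did not run the same way. Krt19 was detected on all H5D arrays and on no GN5 array and was at least 4.22-fold lower in GN5 vehicle cells (adjusted p = 3.86e-09), Krt7 was 5.26-fold lower (adjusted p = 1.45e-08) and Krt8 was 1.63-fold higher (adjusted p = 0.000119). Tf, the only one of 7 hepatocyte markers that was tested, was 13.1-fold lower (adjusted p = 7.49e-10). With rapamycin Krt8 did not pass (log2 difference -0.004) and Aif1 was not tested, whereas Cd14, Krt19, Krt7 and Tf were again lower in GN5 cells. The part of other cells in these differences was not tested.

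In GN5 cells, rapamycin raised Cxcl13 and Nfkbia. Of the 10 genes, 3 were tested in this line (Cxcl1, Cxcl13 and Nfkbia), since the other 7 were undetected with and without rapamycin. Cxcl13 rose 2.46-fold (log2 change 1.30, SE 0.142, n = 3 per group) and Nfkbia rose 1.40-fold (0.48, SE 0.119). The rise of Cxcl13 was smaller in the authors' value table, from which no background had been removed. Its intensities there were 169.8, 135.2 and 152.3 with vehicle and 315.5, 307.7 and 258.3 with rapamycin. Cxcl1 differed by 0.14 (SE 0.107), did not pass the test, and its arrays overlapped (under scaling to a common median it was -0.07). Of the 7449 probes tested, 6.91% passed (3.45% higher and 3.46% lower), and the groups did not overlap for 27.8%. The members include genes chosen for this response, so nothing is read from the count. The raw signals of Nfkbia overlapped, at 482.8, 505.8 and 546.2 with vehicle and 516.4, 566.2 and 544.1 with rapamycin. The median raw signals of GN5 vehicle arrays 2 and 3 were higher than those of all other arrays. The change of Nfkbia was 0.28 under scaling to a common median and 0.36 without GN5 vehicle array 2. It lost its call in both cases and also without rapamycin array 1, 2 or 3, whereas Cxcl13 was called in all 18 alternatives (0.95 to 1.42), a description, as it was chosen by this response.

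**Figure D2:**
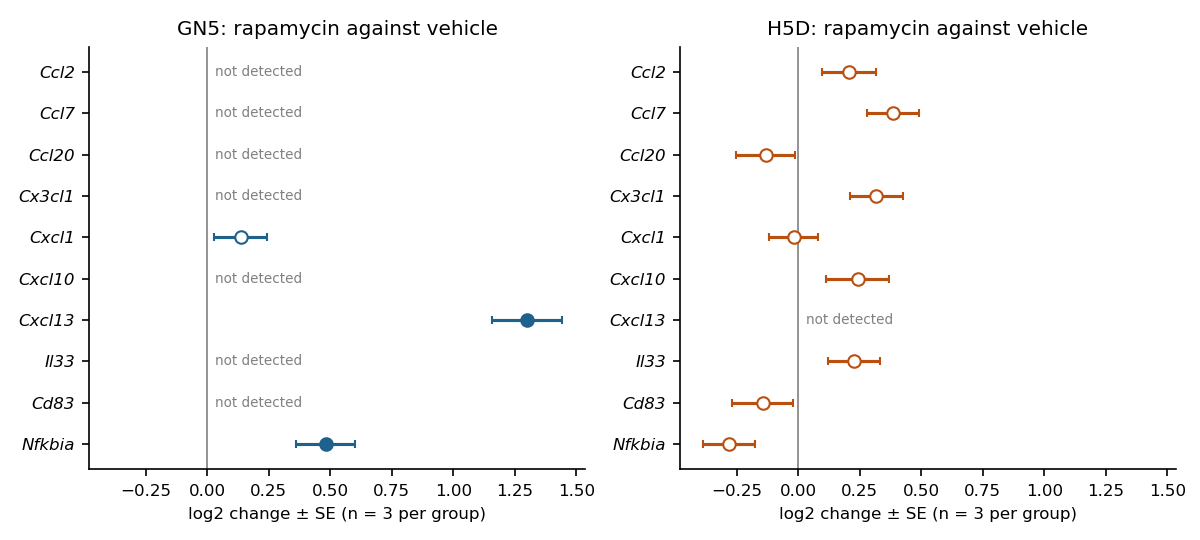
Log2 change with rapamycin (horizontal axis, ± SE, 3 arrays per group) of each gene in GN5 and H5D cells. Filled points passed the test across all probes and open points did not. Cxcl13 (1.30) and Nfkbia (0.48) are filled in GN5 cells, and no gene is filled in H5D cells.

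In H5D cells, none of the members tested passed for a change with rapamycin. Of the 10 genes, 9 were tested and 0 passed (limma, adjusted p below 0.05), with 3 at an unadjusted p below 0.05 (Ccl7, Cx3cl1 and Nfkbia). Of the 7895 probes tested, 0.722% passed (0.317% higher and 0.405% lower), 16.7% had an unadjusted p below 0.05, and the groups did not overlap for 23.1%. The log2 changes were 0.38 (SE 0.104) for Ccl7, 0.32 (SE 0.108) for Cx3cl1, 0.24 (SE 0.128) for Cxcl10, 0.23 (SE 0.107) for Il33 and 0.21 (SE 0.109) for Ccl2. The vehicle and rapamycin arrays did not overlap for these 5 genes. For Nfkbia the change was -0.28 (SE 0.105), also without overlap, although its raw signals (1897, 1531 and 1719 with vehicle, 1437, 1876 and 1467 with rapamycin) did overlap. Cxcl1 (-0.02), Ccl20 (-0.13) and Cd83 (-0.14) had overlapping arrays. Under scaling to a common median these last 3 values changed sign, to 0.06 for Cxcl1 and 0.02 for Ccl20 and Cd83. By the methods' t-test, run here on the same normalised values and probes with a change of at least 1.2-fold, 3 of the 9 passed before adjustment and 1 (Ccl7) after it.

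The rapamycin change was also set against the line, for genes that had been chosen by these same responses. The difference of the changes, GN5 minus H5D, was 1.35 (SE 0.194) for Cxcl13 and 0.76 (SE 0.160) for Nfkbia on the log2 scale. Both passed the test, as did 1.41% of 8539 probes (0.738% higher and 0.668% lower), and nothing is read from that count. For Nfkbia the change was measured in each line. For Cxcl13 the H5D side was below detection on all 6 arrays, so that no change of it in H5D cells could be seen and no difference of responses is claimed for it. The other 8 genes did not pass, and for 7 of them the GN5 side was undetected, among them Il33 (-0.56, SE 0.153) and Ccl7 (-0.48, SE 0.153). For Cxcl1, measured in both lines, the difference was 0.15 (SE 0.142), and -0.13 under median scaling. The call of Nfkbia was lost without GN5 rapamycin array 1, 2 or 3, GN5 vehicle array 2, H5D rapamycin array 1 or 2 or H5D vehicle array 3 (0.64 to 0.81), and under median scaling (0.41). Leaving out GN5 vehicle arrays 2 and 3 together ended both calls, at 1.08 for Cxcl13 and 0.63 for Nfkbia.

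**Figure D3:**
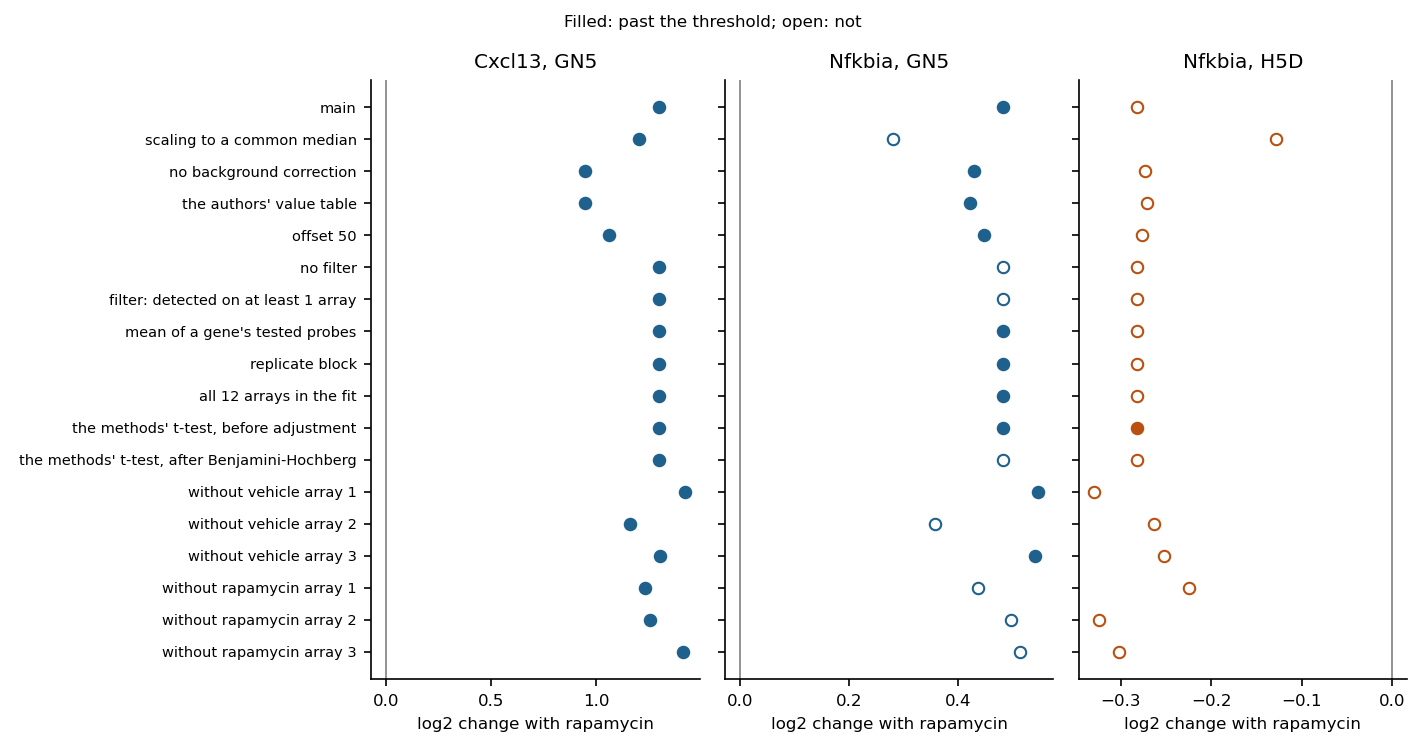
Log2 change with rapamycin (horizontal axis, 1 scale per panel) of Cxcl13 in GN5 cells and of Nfkbia in GN5 and H5D cells under each setting or left-out array (vertical axis). Filled points passed the threshold and open points did not; Cxcl13 is filled throughout, whereas Nfkbia in GN5 cells is open in 8 of the rows shown. The fit without GN5 vehicle arrays 2 and 3 together, where Nfkbia was not called either, is not drawn.

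Further genes of the pathway were taken from 5 lists with 150 genes, of which 124 were on the array. These lists were also drawn up with earlier results of these arrays known. A gene not detected on all 3 arrays of the dimmer line entered the line comparison only through the brighter line. The adjusted p-values of such genes, below and among the markers above, are a description and no independent support. In the comparison of GN5 with H5D vehicle cells, 57 of the listed genes were tested. Of these, 19 were higher, 29 lower and 9 did not pass, where 32.3% of all probes tested were higher and 31% lower. Genes tested only through the brighter line are among them, so nothing is read from these counts or from those of each list. For Tnfsf12, Il15 and Nfkb1, counted as lower, the bound was 0.968-, 1.00- and 1.01-fold, so no fold is claimed for them. Among 7 other chemokines tested, 3 were higher and 3 lower (median log2 difference -0.15, against 0.04 over all probes). Cxcl12, the ligand of Cxcr4 and Ackr3, was at least 51.2-fold higher in GN5 cells (adjusted p = 1.64e-11, limma), at mean levels of 11.02 and 4.71. Cxcl17 was 4.02-fold higher (adjusted p = 3.41e-07). Cxcl2, a close relative of Cxcl1 that also acts on neutrophils, was at least 41.5-fold lower in GN5 cells (adjusted p = 6.36e-11). Cross-hybridisation between related chemokine transcripts was not tested.

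The receptors named above for the 7 member chemokines, not a full list of their receptors, were mostly below detection. Of these 6 (Ccr2, Ccr6, Cx3cr1, Cxcr2, Cxcr3 and Cxcr5), 4 were undetected on all 12 arrays, Ccr2 was detected on 1 array and Cxcr3 on 4. Of 10 other chemokine receptors on the array, 7 were undetected on all 12 arrays, whereas Ccr3 was detected on 2, Ackr3 on 8 and Ccr7 on all 12. Most probes of the array were below detection too, with 33.0% to 37.7% of all probes detected per array. Nothing is therefore read from these receptor counts, and the share of all probes undetected on all 12 arrays was not counted. Il1rl1, through which Il33 acts, was detected on all 6 GN5 arrays and on no H5D array. This was the reverse of the brighter Il33 probe, whereas the further Il33 probe was undetected on all 12 arrays. Il1rl1 was at least 11.8-fold higher in GN5 cells with vehicle (adjusted p = 8.92e-11). Its partner Il1rap was undetected on all 12 arrays. Ackr3, a scavenging receptor for Cxcl12, was at least 58.8-fold higher in GN5 vehicle cells (adjusted p = 5.20e-11).

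Among NF-kappaB signalling genes, 7 of 20 tested were higher and 8 lower in GN5 vehicle cells (median -0.26, or -0.14 at the bound), shares near the 32.3% higher and 31% lower of all 8279 probes. Ikbke, a kinase related to the IkappaB kinases, was 9.39-fold lower (adjusted p = 3.49e-09) and was detected on 1 of 3 GN5 vehicle arrays, so that this fold is against values mostly below detection. Nfkb2, the precursor of the p52 subunit, was 3.38-fold lower (adjusted p = 1.27e-06). Tnip2, which binds the inhibitor A20, was at least 2.12-fold higher (adjusted p = 4.38e-06). Rela, the p65 subunit, was 1.59-fold higher in GN5 cells (adjusted p = 0.000223). It was named for its role, after its values were seen. Upstream, the lipopeptide receptor Tlr2 was at least 3.72-fold lower in GN5 cells (adjusted p = 4.45e-09) and its relative Tlr6 was 2.36-fold higher (adjusted p = 3.14e-06).

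Of 21 other NF-kappaB targets tested, 16 were lower and 4 higher in GN5 vehicle cells (median -1.37, or -1.07 at the bound), where 31% of all 8279 probes were lower and 32.3% higher. Among the 21, 10 were undetected in the dimmer line, and Mmp9, Tap1 and Gadd45b were detected there on 1 of 3 arrays. All of these were tested only through the brighter line, which fixed or favoured their direction. Nothing is therefore read from the counts or the median. The granulocyte growth factor Csf3 was at least 31.2-fold lower (adjusted p = 1.08e-11), the iron-binding protein Lcn2 at least 21.9-fold lower (adjusted p = 1.42e-11) and the hyaluronan receptor Cd44 at least 8.78-fold lower (adjusted p = 1.09e-09). The 4 targets that were higher in GN5 cells were Gadd45b (5.81-fold, adjusted p = 8.28e-07), Birc2, Csf1 and Ninj1. Gadd45b was detected on 1 of 3 H5D vehicle arrays, so that its fold too is against values mostly below detection.

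**Figure D4:**
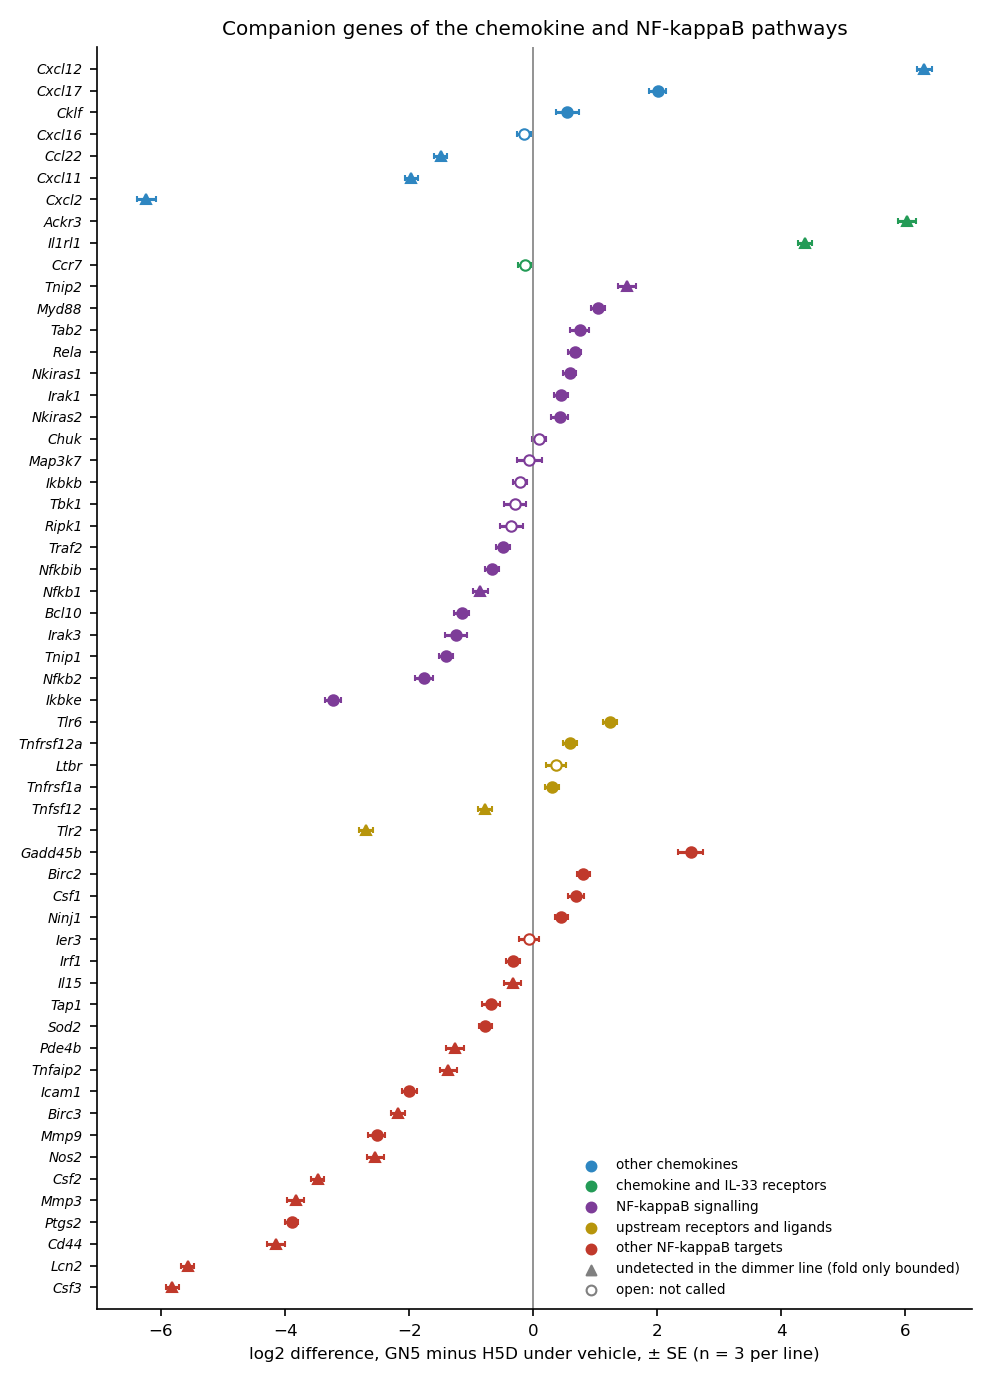
Log2 difference of GN5 minus H5D under vehicle (horizontal axis, ± SE, 3 arrays per line) for the 57 further pathway genes tested, coloured by list. Filled points passed the test, and triangles mark genes undetected in the dimmer line, where the point is the measured difference and the fold can only be bounded. Of the 21 other targets, 16 are filled on the left (lower in GN5 cells).

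With rapamycin, 5 of 36 further genes tested passed in GN5 cells, against 6.91% of all 7449 probes. Cxcl12 rose 1.41-fold (log2 change 0.50, SE 0.106, adjusted p = 0.0177) and the chemokine receptor Ccr7 rose 1.33-fold (adjusted p = 0.0271). The raw signals of both overlapped between the treatments. They were 2231 to 2659 with vehicle and 2503 to 2840 with rapamycin for Cxcl12, and 120.0 to 167.3 and 130.5 to 148.7 for Ccr7. Those of Cxcl17 did not overlap (280.2 to 353.8 and 200.6 to 218.0). Cxcl17 fell 1.34-fold (adjusted p = 0.0358), the adaptor of Toll-like receptors Myd88 fell 1.42-fold (adjusted p = 0.0289) and the transcription factor Irf1 fell 1.36-fold (adjusted p = 0.0284). Leaving out vehicle array 2 or 3 or rapamycin array 1, 2 or 3 brought this count to between 0 and 2. In H5D cells 2 of 58 passed, against 0.722% of all 7895 probes. Stromelysin-1 (Mmp3), a matrix protease, rose 2.04-fold (1.03, SE 0.154, adjusted p = 0.021) and the TNF family ligand Tnfsf12 rose 1.58-fold (adjusted p = 0.0379). The vehicle mean of Tnfsf12 (5.50) lay near the lowest detected levels of those arrays (5.29 to 5.45), where levels are least certain. The count in H5D cells was 0 without vehicle array 1 or 3 or without rapamycin array 1, 2 or 3.

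Over the 12 arrays, the patterns most like those of the members were found by Pearson correlation of log2 levels with all other named and detected probes. Such correlations mainly carry the difference between the lines, which the points share, and are given as a description. Fabp4 (r = 0.9997) and Lcn2 (r = 0.9996) were most like Ccl2, and Cd24 was first for both Ccl7 (r = 0.9997) and Il33 (r = 0.9995). Mgst1 (r = 0.9995) led for Ccl20, Lcn2 (r = 0.9994) for Cx3cl1, Dcdc2 (r = 0.9991) for Cxcl1, Smpdl3a (r = 0.9988) for Cxcl10 and Tnfrsf11b (r = 0.9997) for Cd83. Tpbg (r = 0.9937) and Sertad4 (r = 0.9906) were most like Cxcl13, and Gstt1 (r = 0.9879) and Camk2n1 (r = 0.9875) most like Nfkbia.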

How the data were processed

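Total RNA of 12 cultures (GN5 or H5D, vehicle or rapamycin, 3 arrays each, grouped by their titles in the labels) was hybridised to 1-colour bead arrays. The deposited bead table gave each probe's linear intensity, neither background subtracted nor normalised, with a detection p-value per probe and array, per the file headers. The authors' own value table held quantile-normalised linear intensities from BeadStudio. The submitters' processing notes name Partek 6.3 for their analysis. The value table was used as an alternative. Its column medians were 80.5 to 80.6, and its ranks matched the raw signal. All sample columns were used.

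Background was removed from the raw intensities with the normal-exponential model of neqc, driven by the detection p-values with an offset of 16. Quantile normalisation and a log2 transform followed (limma 3.58.1, R 4.3.3). Background correction changed the spacing of low signals, so that small levels are the least certain. A probe was tested if detected (detection p at most 0.01) on all 3 arrays of at least 1 group compared. A gene was represented by its brightest tested probe. Of 22523 probes 13793 had 1 gene symbol, 0 several and 8730 none, and 13752 matched GRCr8 by Entrez identifier. Linear models with moderated variances (limma, two-sided) were fitted on the 6 arrays of each comparison, and on all 12 for the difference of responses, adjusted by Benjamini-Hochberg across the tested probes (threshold 0.05). SE values come from these models. Scripts were tested on simulated data.

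A gene undetected in the dimmer group is given as "at least N-fold". The bound sets the mean log2 level of the brighter group against a floor in the dimmer group. That floor is the lowest detected level on each array, or the gene's own where that is higher, averaged over arrays, and the bound holds for background-corrected signals only. The members and lists were chosen with earlier results of these data known. Named genes were all members, up to 3 called genes of each list with the largest change in each comparison, and the 2 patterns most like each member. Counts of 5 or fewer could be spelled out by name. Not every gene that this rule named is printed. Rela, Il1rap and receptors outside the rule were named for their roles after their values were seen. Alternatives covered background, scaling, filter, probe choice, replicate block, the arrays in the fit and the methods' t-test on the same values and probes (fold limit 1.2), not on the study's own inputs. P-values reflect the spread between plates only, and the precision is limited by the 3 arrays in a group.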

Additional observations from a re-analysis of the deposited data

Results flagged for a closer look

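The rapamycin changes were set against each other between the lines (GN5 minus H5D on the log2 scale, limma, over all 12 arrays), and 5 genes past the threshold are listed here. The members and lists were drawn up with these results known. Both changes were measured for 2 of these genes. For the member Nfkbia the difference was 0.76. For the transcription factor Irf1, detected on all 12 arrays, it was -0.74 (adjusted p = 0.0142), with mean log2 levels of 9.27 and 8.82 in GN5 vehicle and rapamycin cells and 9.60 and 9.89 in H5D cells. For the other 3 genes 1 line was undetected on all 6 arrays, so that no difference of responses is claimed and the fitted value reflects the line in which the gene was seen. It was 1.35 for Cxcl13, undetected in H5D cells, and, for genes undetected in GN5 cells, -1.09 for the matrix protease Mmp3 and -0.75 for the TNF family ligand Tnfsf12. Among the cell type markers, Krt8 (-0.71, adjusted p = 0.00796), detected on all 12 arrays, and Aif1 (0.78, adjusted p = 0.0265), undetected on all 6 GN5 arrays, also passed, and their part in the result was not tested. Groups of 3 arrays are too small for a search for outlying arrays.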

How the results depend on the processing

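The members were chosen by their difference between the lines, and 8 of the 10 were tested through the line in which they were detected, so that their 10 calls under each alternative, with vehicle and with rapamycin, are no sign of stability. Likewise as a description, 0 of 727 member values under alternatives turned a called direction. In GN5 cells the count of members called fell from 2 to 1 under median scaling, without a filter, with a filter of 1 detected array, by the methods' t-test after Benjamini-Hochberg adjustment and without GN5 vehicle arrays 2 and 3 together (an alternative chosen after seeing the data), and Cxcl13 was the gene called each time. Leaving out each array in turn gave 1 to 2. Nfkbia kept its call there in 9 of 18 alternatives (0.28 to 0.55). In H5D cells 0 became 3 by the methods' t-test before adjustment and 1 after it. For the difference of responses, 2 became 1 under median scaling and without a filter, 0 without GN5 vehicle arrays 2 and 3, and 1 to 2 with 1 array left out. The cause was not tested, beyond the larger number of probes tested without a filter.

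Among the further pathway genes, 5 calls in GN5 cells became 8 without background correction, with the authors' value table or with offset 50, 0 without a filter, 1 with a replicate block, 10 by the methods' t-test before adjustment, 1 without GN5 vehicle arrays 2 and 3, and 0 to 6 with 1 array left out. In H5D cells 2 became 4 under median scaling, 1 without background correction, with the value table or with offset 50, 0 without a filter or with a replicate block, 7 with all 12 arrays in the fit, 11 and 7 by the methods' t-test before and after adjustment, and 0 to 2 with 1 array left out. The 48 calls between the lines became 45 to 54 with 1 array left out.

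Over all probes in GN5 cells, 515 calls (257 higher, 258 lower) became 857 under median scaling (103 higher, 754 lower), 233 without a filter, 330 with the replicate block, 976 by the methods' t-test before adjustment, 97 without GN5 vehicle arrays 2 and 3, and 167 to 967 with 1 array left out. In H5D cells 57 (25 higher, 32 lower) became 164 under median scaling (156 higher, 8 lower), 92 without background correction, 87 with the value table, 31 without a filter, 15 with the block, 290 with all 12 arrays, 753 and 300 by the methods' t-test before and after adjustment, and 0 to 41 with 1 array left out. For the difference of responses 120 became 252 under median scaling (16 higher, 236 lower) and 13 without GN5 vehicle arrays 2 and 3. With rapamycin the split of 3160 higher and 2828 lower in GN5 became 1855 and 3504. Median scaling moved the median change of all probes to -0.14 in GN5 cells, 0.17 in H5D cells, -0.29 for their difference and -0.17 between the lines with rapamycin.

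Arrays with the same replicate number did not deviate together (correlations -0.17, 0.11 and -0.22 in GN5 cells, 0.21, 0.01 and -0.37 in H5D cells), so the numbers were not read as pairs. The replicate block left the member counts at 2, 0 and 2 in GN5 cells, H5D cells and their difference. With the authors' value table, without background correction or with offset 50 the measured differences between the lines were smaller (Ccl2 down to -6.72, Cxcl13 down to 1.08 with vehicle), and with the value table they lay under the bounds of the main correction. Signals near background bound the 8 line differences given as at least N-fold, and the array gives no depth.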
